A study of Mus musculus with 12 samples.

Results

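The 5 genes described here encode transcription factors of the T helper 1 (Th1) program: the T-box factors Tbx21 (its protein is T-bet) and Eomes, their Runt-domain partner Runx3, and the homeodomain proteins Hlx and Hopx. They were found by mapping the accession of each non-control probe on the array to a mouse gene, which gave 6 probes for these 5 genes, of 41174 distinct probes and 14705 genes tested. Runx3 had 2 probes and the other genes 1 each. All 6 probes were well above background on all 12 arrays and none was saturated or marked as an outlier, so every member was measured in every sample.

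The samples were helper T cells of C57BL/6 mice aged 7 weeks, stimulated in culture through CD3 and CD28 for 65 hours, given IL-2 for a further 48 hours, electroporated 2 times (days 1 and 4) and collected for RNA on day 5, which was 24 hours after the last electroporation. In 1 pair of groups the mice were DGCR8-deficient (called KO here), and their cells received miR-29b (KO miR-29b) or a control miRNA (KO control). In the other pair the mice were wild type, and their cells received miR-29 inhibitors (WT inhibitor) or control inhibitors (WT control). There were 3 arrays in each group, 1 from each of 3 mice (numbered 2, 3 and 4, separately for each genotype), and the cells of each DGCR8-deficient mouse received both miR-29b and the control. For the wild type, that arrays with the same number came from the same mouse is assumed from the sample titles. DGCR8 binds primary microRNAs and, with the nuclease Drosha, starts their processing, so cells without it lack most mature microRNAs. How the deletion was made and in which cells is not given in the sources used here. RNA was labelled with Cy3 and hybridised to Agilent 4x44K mouse arrays, 1 sample per array. The transfections ask which genes respond to adding miR-29b to cells short of microRNAs, and to blocking miR-29 in normal cells.

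In helper T cells, T-bet directs the Th1 fate: it is induced by T cell receptor and interferon signals, and it activates Ifng, the gene of interferon gamma, and chemokine and chemokine receptor genes. Eomes is a close relative of T-bet that is best known from CD8 T cells and natural killer cells, where it promotes perforin and interferon gamma expression, and it can drive Ifng in helper T cells too. RUNX3 acts together with T-bet at Ifng and at the silencer of Il4, HLX cooperates with T-bet in inducing interferon gamma, and HOPX, a small homeodomain protein that does not bind DNA, is a T-bet target that supports the persistence of Th1 effector cells. The mRNAs of Tbx21 and Eomes have been described as miR-29 targets, and microRNAs recognise target mRNAs mainly through the seed, bases 2 to 8 of the mature strand.

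The mature sequences of the family are shown because miR-29b was the added agent and the inhibitors were directed at miR-29 as a whole. They are written 5′ to 3′ from RefSeq (GRCm38.p6), with the seed in capitals.
mmu-miR-29b-3p: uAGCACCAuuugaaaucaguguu
mmu-miR-29a-3p: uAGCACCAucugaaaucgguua
mmu-miR-29c-3p: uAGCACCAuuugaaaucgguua
All 3 share the seed AGCACCA. Over the first 22 bases miR-29a differs from miR-29b at 4 positions and miR-29c at 3. miR-29b is encoded by 2 genes, Mir29b-1 on chromosome 6, with the mature strand at chr6:31063025-31063047 (minus strand), and Mir29b-2 on chromosome 1, at chr1:195037091-195037113 (plus strand). Transcript sequences were not used here, so target sites in the 5 mRNAs were not searched.

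The promoters of the members were searched for the RUNX core motif ACCACA and the T-box motif AGGTGT, on both strands, in the 250 bases before each annotated start (7 windows, since Runx3 and Hopx have 2 each). Only the upstream start of Runx3 held a match, with the RUNX core 2 times, beginning 134 and 126 bases before the start. This window is shown because RUNX3 is a member itself (GRCm38.p6, plus strand, chr4:135120395-135120644, RUNX cores in capitals).
Runx3 upstream promoter: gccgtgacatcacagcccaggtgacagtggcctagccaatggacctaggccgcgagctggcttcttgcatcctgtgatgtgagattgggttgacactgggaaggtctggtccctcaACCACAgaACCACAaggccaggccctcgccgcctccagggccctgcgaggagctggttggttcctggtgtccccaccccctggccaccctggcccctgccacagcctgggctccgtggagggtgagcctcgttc
Of 32851 promoter windows of this length in the RefSeq table, 14.0% held ACCACA or its complement and 11.8% held AGGTGT or its complement. A match describes letters in a window and not a bound site.

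Each array had between 27287 and 31405 probes well above background, and precision is limited by the number of arrays, 3 in a group. Dgcr8 had levels of -1.24 to -0.15 on the 6 KO arrays and -0.16 to 1.0 on the 6 WT arrays. Between the controls it differed by -1.06 ± 0.38 (log2, SE), which did not pass the threshold (limma, adjusted p = 0.0720), and whether its probe lies in the deleted part is not known. Dnmt3a and Dnmt3b, DNA methyltransferase genes that are curated miR-29 targets, fell with miR-29b by 1.0 and 1.96 on the log2 scale (limma, adjusted p = 0.0244 and 0.00463). The summed signal of 12 T cell identity genes, in units of the array's 75th percentile, was 441 to 485 in KO miR-29b, 338 to 374 in KO control, 443 to 449 in WT inhibitor and 387 to 469 in WT control. Between the controls 1 of these 12 genes was called higher (Cd28, 1.25) and 2 lower (Lck, -0.67, and Lat, -0.55), against 22.0% of all genes called in either direction, and Lat lost the call when blocked on the mouse (limma, adjusted p = 0.0755). With miR-29b 0 of the 12 were called without a block, and 4 higher and 1 lower when blocked on the mouse, against 13.1% and 9.44% of all genes. The miR-29b array of KO mouse 3 stood apart, with 1577 spots marked as outliers against 101 to 279 on the other arrays.

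Levels are given for mice 2, 3 and 4 in that order, on a log2 scale on which 0 is the 75th percentile of the array's signals. Differences are log2 fold changes ± SE from a limma fit of all 12 arrays (n = 3 per group), and calls use a Benjamini-Hochberg adjusted p under 0.05 over all 14705 genes. The 2 arrays of each mouse lay on the same slide and were scanned on the same day. Where blocking on the mouse changed a call for 1 of the 5 genes, the blocked value stands beside the other.

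Tbx21 lies on chromosome 11 at chr11:97098007-97115331. Its levels were 3.45, 4.52 and 2.83 in KO miR-29b cells and 4.85, 5.06 and 3.83 in KO control cells. In the wild type they were 3.98, 2.53 and 4.00 with inhibitors and 3.67, 2.29 and 3.93 with the control. The gene was bright in all 4 groups, with scanner signals of 7501 to 33466 arbitrary units, and the ranges of all groups that neighbour each other in the order of means overlapped. Within every group 1 array was lower than the other 2 by at least 0.63, and it was always the array scanned on the second day.

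Eomes lies on chromosome 9 at chr9:118478186-118486132. Its levels were -1.05, -0.88 and -1.05 in KO miR-29b cells and -0.13, 0.47 and 0.02 in KO control cells. In the wild type they were -3.86, -4.17 and -3.65 with inhibitors and -4.18, -4.68 and -4.60 with the control. The groups ordered as KO control, KO miR-29b, WT inhibitor and WT control, from high to low, and no neighbours overlapped, although WT inhibitor and WT control were separated by only 0.01 at their nearest arrays. Scanner signals were 458 to 1652 arbitrary units on KO arrays and 38.9 to 84.1 on WT arrays.

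Runx3 lies on chromosome 4 at chr4:135120645-135177990. Its brighter probe gave 1.63, 1.44 and 1.74 in KO miR-29b cells and 1.97, 1.83 and 2.55 in KO control cells. In the wild type this probe gave 0.79, 1.31 and 0.90 with inhibitors and 0.74, 1.26 and 0.87 with the control. The groups had the same order as for Eomes, and only the WT groups overlapped. The dimmer probe gave -0.75, -0.69 and -0.82 in KO miR-29b, -0.52, -0.34 and -0.30 in KO control, -0.98, -0.83 and -0.79 in WT inhibitor and -1.08, -0.79 and -0.95 in WT control. On the dimmer probe the order of means was again the same, and KO control lay above the other 3 groups with no overlap.

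Hlx lies on chromosome 1 at chr1:184727143-184732493. Its levels were -0.98, 0.58 and -2.14 in KO miR-29b cells and 0.38, -0.26 and -1.43 in KO control cells. In the wild type they were -4.18, -2.89 and -3.02 with inhibitors and -4.79, -3.27 and -3.69 with the control. All 6 KO arrays were above all 6 WT arrays, while the groups within a genotype overlapped. It had the widest spread of the 5 genes within KO miR-29b (SD 1.36) and within KO control (SD 0.92).

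Hopx lies on chromosome 5 at chr5:77086986-77115123. Its levels were -1.38, -0.19 and -0.34 in KO miR-29b cells and 0.94, 1.18 and 2.02 in KO control cells. In the wild type they were 0.74, 1.64 and 0.73 with inhibitors and 0.70, 1.29 and 0.91 with the control. Hopx thus had another order than the other 4 genes: KO miR-29b was the lowest group, with no overlap, and the other 3 groups overlapped each other.

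**Figure D1:**
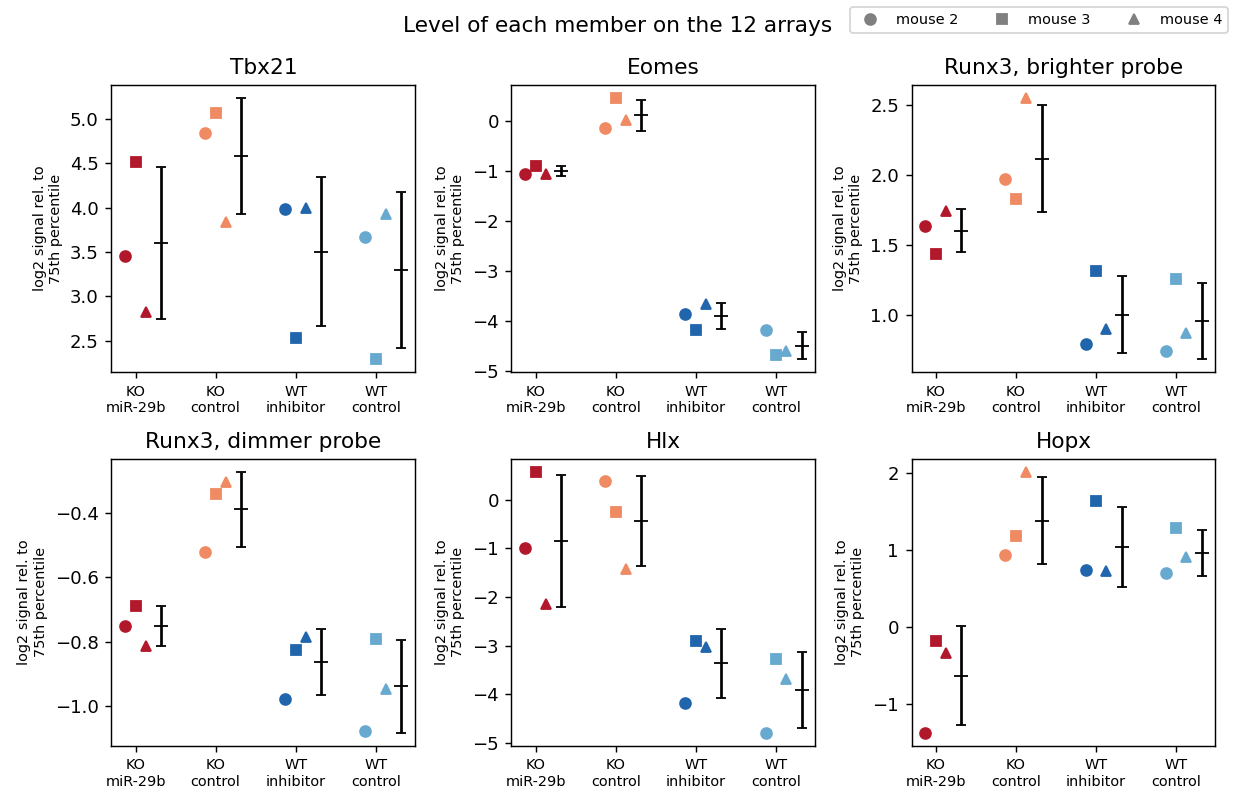
Log2 signal relative to the array's 75th percentile (vertical axis) of the 6 probes on the 12 arrays, by group; symbols mark the mouse number within a genotype, and the black bar is the mean ± SD (n = 3). Eomes, Hlx and the brighter Runx3 probe separate the KO groups from the WT groups, and Hopx sets KO miR-29b, at -1.38 to -0.19, apart from the other groups.

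In DGCR8-deficient cells given miR-29b, Hopx and Eomes were lower past the threshold. Hopx had 24.7% of its level in KO control cells, a log2 change of -2.01 ± 0.40, and Eomes had 46.2%, a change of -1.11 ± 0.22 (limma, adjusted p = 0.0296 and 0.0277). Thus 2 of the 5 genes were called lower, against 1.19% of all genes tested (2.20% in either direction). Hopx had the 20th lowest log2 change of the 14705 genes and Eomes the 232nd lowest.

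Within mice, Hopx changed by -2.32, -1.37 and -2.36, so its smallest change was in KO mouse 3. Eomes changed by -0.92, -1.35 and -1.07 in the same mice. Both genes were lower with miR-29b in 3 of 3 mice, and the groups did not overlap.

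Tbx21, the other T-box factor, showed a difference of -0.98 ± 0.60 that did not pass (limma, adjusted p = 0.530). Its 95% interval ran from -2.30 to 0.34. In each KO mouse the miR-29b array was the lower one, by -1.40, -0.54 and -1.01. Without the miR-29b array of KO mouse 4 alone the difference was -0.60, still not past the threshold. With the mouse as a block, which takes out the offset that both arrays of a mouse share, the same difference had an SE of 0.16 and passed (limma, adjusted p = 0.0124).

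Runx3 showed -0.51 ± 0.24 on its brighter probe (limma, adjusted p = 0.359), with changes of -0.34, -0.39 and -0.81 within mice, and was called when blocked on the mouse (adjusted p = 0.0239). It was -0.30 without the KO control array of mouse 4. The dimmer probe showed -0.36 ± 0.16 and did not pass over all 32200 kept probes (limma, adjusted p = 0.408). Hlx showed -0.41 ± 0.71 (limma, adjusted p = 0.895), with -1.36, 0.83 and -0.71 within mice. It was higher with miR-29b in KO mouse 3, whose miR-29b array stood apart in its outlier spots, and the difference was 0.23 without the miR-29b array of KO mouse 4.

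**Figure D2:**
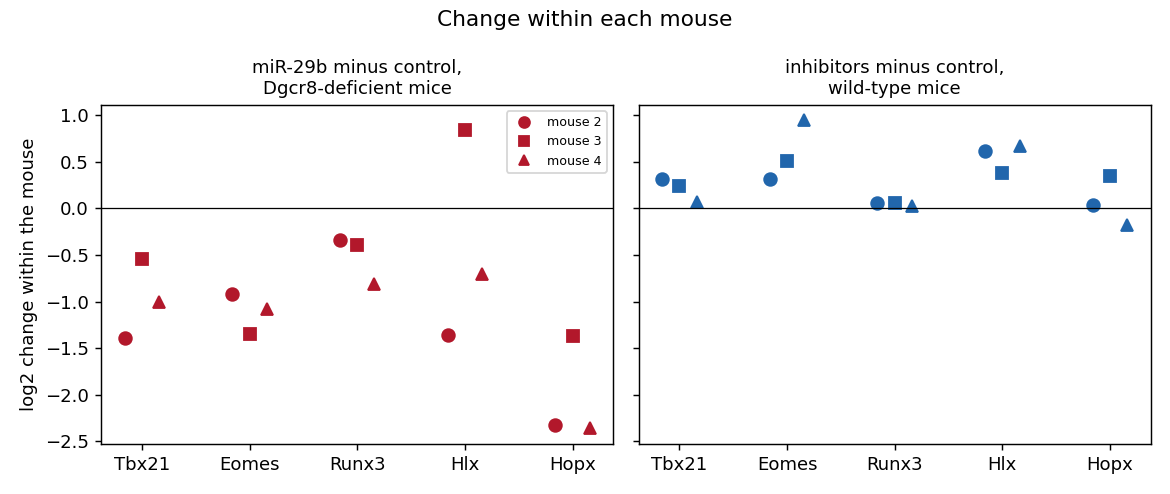
Log2 change within each mouse (vertical axis) for the 5 genes: miR-29b minus control in the 3 DGCR8-deficient mice (left) and inhibitors minus control in the 3 wild-type mice (right). Tbx21, Eomes, Runx3 and Hopx lie below 0 in all 3 DGCR8-deficient mice, and Hlx lies above 0 in 1.

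Blocked on the mouse, 4 of the 5 genes were called lower, against 9.44% of all genes. Lower levels with miR-29b in all 3 mice were seen for 4 of the 5, against 21.6% of all genes. Groups that did not overlap, with miR-29b lower, were seen for 3 of the 5 (Eomes, Runx3 and Hopx), against 6.54%. The median change was -0.98 over the 5 genes and 0.10 over all genes. When each array was scaled by its median in place of the 75th percentile, the median of all genes moved to -0.09. Such a change of scale shifts all genes alike, here downward, so the 5 genes, already below 0, could not change sign.

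The calls of Eomes and Hopx lay close to the threshold. Fitted on only the 6 KO arrays, neither passed (limma, adjusted p = 0.239 and 0.242), and limma then called 0 genes, although 1346 had p under 0.05 before adjustment. Eomes also did not pass with normexp background correction (-0.98, limma, adjusted p = 0.107). When p-values were adjusted over all 32200 kept probes, Hopx and Eomes also did not pass (limma, adjusted p = 0.0513 and 0.0520). Leaving out single KO arrays, Eomes passed only without the miR-29b array of KO mouse 3 (-1.17, limma, adjusted p = 0.0497), and so did Hopx (-2.24, adjusted p = 0.0375); the adjusted p reached 0.0913 for either gene without the miR-29b array of KO mouse 2. Leaving out the WT inhibitor array of mouse 2 also ended both calls (adjusted p = 0.0576 for Eomes and 0.0534 for Hopx), and that of Hopx was lost without the WT control array of mouse 2 or 4 or the WT inhibitor array of mouse 4 (0.0507, 0.0508 and 0.0512).

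**Figure D3:**
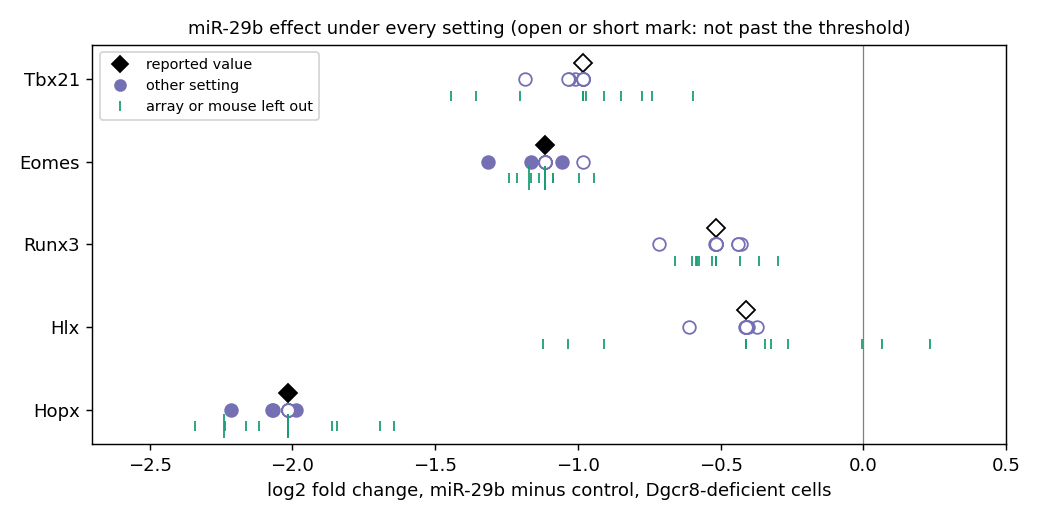
Log2 fold change of miR-29b minus control in DGCR8-deficient cells (horizontal axis) for each gene as reported (diamonds), under 11 other settings (circles) and with arrays or mice left out (ticks); filled or long marks pass an adjusted p of 0.05. Eomes ranges from -1.32 to -0.94 and Hopx from -2.34 to -1.64, and the values of Hlx cross 0.

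In wild-type cells given inhibitors none of the 5 genes passed the threshold. Eomes showed the largest shift relative to its error, 0.59 ± 0.22 (limma, adjusted p = 0.99999), with a 95% interval of 0.11 to 1.07. It was higher with inhibitors in 3 of 3 mice, by 0.32, 0.51 and 0.94. With normexp background correction, which adds an offset of 50 to each signal, this difference was 0.12.

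Hlx showed 0.55 ± 0.71 with inhibitors, with an interval of -1.02 to 2.13, and was higher in 3 of 3 mice, by 0.61, 0.38 and 0.66. It was 0.15 with normexp background correction, and between 0.12 (without the WT control array of mouse 2) and 0.96 (without the WT inhibitor array of mouse 2) with single arrays left out. Tbx21 showed 0.21 ± 0.60, with an interval of -1.11 to 1.53, and 0.31, 0.24 and 0.07 within mice. Runx3 showed 0.05 ± 0.24 (-0.48 to 0.57) and Hopx 0.07 ± 0.40 (-0.81 to 0.95). Over all genes limma called 0 in this comparison (0% of 14705), while 61 had p under 0.05 before adjustment, and it called 0 again when the mouse was a block, while 512 did. Higher levels with inhibitors in all 3 mice were seen for 4 of the 5 genes (all but Hopx), against 14.7% of all genes, and groups that did not overlap for 1 of the 5 (Eomes), against 1.65%. Runx3 is counted here by its brighter probe, which changed by only 0.06, 0.05 and 0.03 within mice. Its dimmer probe changed by 0.10, -0.03 and 0.16 and was thus not higher in all 3 mice.

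**Figure D4:**
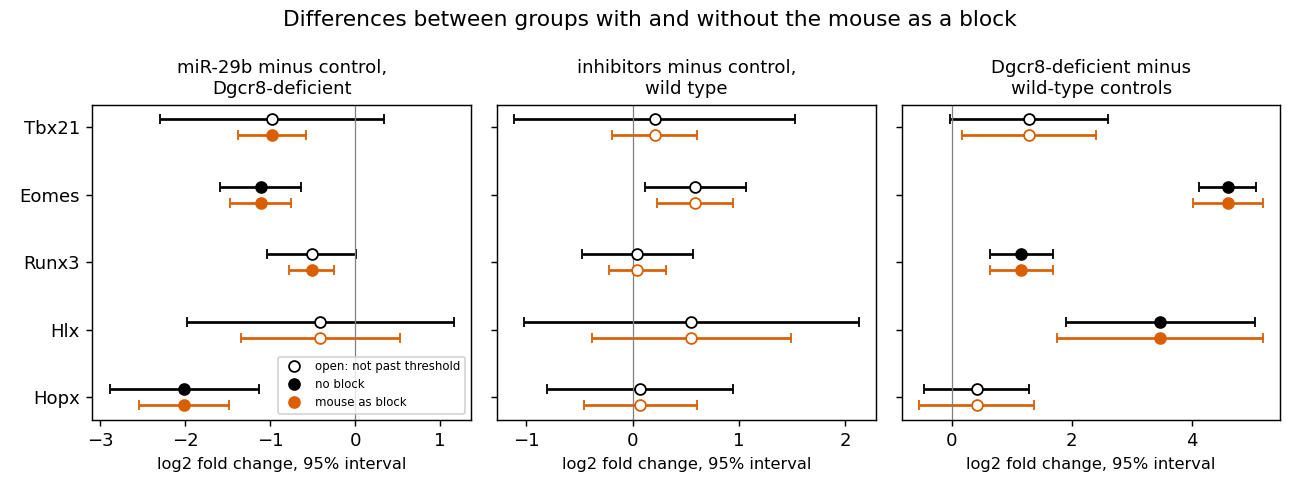
Log2 fold change with its 95% interval (horizontal axis) for the 5 genes in 3 comparisons, without a block (black) and with the mouse as a block (orange); filled points pass an adjusted p of 0.05. The miR-29b effects on Tbx21 and Runx3 pass only with the block, and in the wild type no point is filled.

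The effect of miR-29b was set against that of the inhibitors in the same fit. For Eomes the effects differed by -1.71 ± 0.30 and for Hopx by -2.09 ± 0.56, and neither passed without a block (limma, adjusted p = 0.0672 and 0.239). Without a block 0 of the 5 genes were called, against 0.163% of all genes, and 1048 genes had p under 0.05 before adjustment. Blocked on the mouse, Eomes, Hopx and Tbx21 (-1.19 ± 0.23) were called (limma, adjusted p = 0.0172, 0.0240 and 0.0416), 3 of the 5, against 6.15%. Runx3 (-0.56) and Hlx (-0.96) passed in neither fit.

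Among control-transfected cells, 3 of the 5 genes were higher in DGCR8-deficient than in wild-type cells past the threshold, against 9.27% of all genes called higher (22.0% called in either direction). Eomes was 24.4-fold higher, a difference of 4.61 ± 0.22, and ranked 5th of the 14705 genes by p (limma, adjusted p = 1.84e-06). Hlx was 11.2-fold higher (3.48 ± 0.71) and Runx3 2.24-fold higher (1.16 ± 0.24), with adjusted p-values of 0.00563 and 0.00555 from the same limma fit. The genotypes also differed in the kind of control, a control miRNA or control inhibitors, so the genotype and the control cannot be told apart.

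The slides that held both genotypes gave 4.05 and 4.70 for Eomes, 1.24 and 1.29 for Runx3, and 5.17 and 1.84 for Hlx. The WT signals of Eomes and Hlx were dim, and with normexp background correction their differences were 3.22 and 2.48, still past the threshold. The dimmer Runx3 probe showed 0.55 ± 0.16, less than the brighter one, and passed over all kept probes (limma, adjusted p = 0.0347), where 8.08% of probes were called higher.

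Tbx21 showed 1.28 ± 0.60 between the controls and did not pass (limma, adjusted p = 0.164), whereas it was called when blocked on the scan day (adjusted p = 0.00264) or on the slide (1.22, adjusted p = 0.00442). Without the WT control array of mouse 3 it was 0.78 and did not pass. Within the shared slides it was 1.18 and 1.54. Hopx showed 0.42 ± 0.40 (limma, adjusted p = 0.547), with a 95% interval of -0.46 to 1.29 and within-slide values of 0.24 and 0.73. Groups that did not overlap, with KO control higher, were seen for the 3 called genes, against 14.9% of all genes.

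Set beside WT control cells, the KO miR-29b cells had higher Eomes, Runx3 and Hlx with no overlap (17.3% of all genes did so) and lower Hopx with no overlap (20.0% of all genes). Eomes averaged -0.99 ± 0.10 in KO miR-29b and -4.49 ± 0.27 in WT control (SD, n = 3 each). The brighter Runx3 probe, which stands for the gene here, averaged 1.60 ± 0.16 in KO miR-29b and 0.95 ± 0.27 in WT control, while the groups overlapped on the dimmer probe (-0.82 to -0.69 in KO miR-29b and -1.08 to -0.79 in WT control). Hopx averaged -0.63 ± 0.65 in KO miR-29b and 0.97 ± 0.30 in WT control. Eomes in KO miR-29b cells was thus below KO control and above WT control, whereas Hopx was below both.

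Markers of other cell types were compared between the controls, where 9.27% of all genes were called higher and 22.0% in either direction. Of 8 B cell markers 7 were called higher in KO control cells, among them Ms4a1 (5.86) and Cd79b (3.83). Their summed signal was 8.06 to 11.5 times the array's 75th percentile in KO control against 0.405 to 0.575 in WT control. Of 7 natural killer cell markers Klra7 and Tyrobp were called higher (summed 0.213 to 0.844 in KO control and 0.126 to 0.185 in WT control), Klra7 losing the call when blocked on the mouse (limma, adjusted p = 0.0551). The defining receptor gene Ncr1 was well above background on 7 of 12 arrays. These were 3 KO control, 2 KO miR-29b, 2 WT control and 0 WT inhibitor arrays. Of 4 measured CD8 T cell markers Klrk1 was called higher and Klrd1 lower (summed 0.475 to 0.860 in KO control and 1.38 to 2.93 in WT control), and Cd8a itself showed 0.26. Klrk1 was well above background on only 1 of the 3 WT control arrays. Klrd1 was the brightest of these markers in WT control, with a mean level of 0.95 against -2.58 for Cd8a. The sum therefore mainly follows Klrd1 and not Cd8a. With bulk RNA, a change in the number of cells of a type and a change in RNA per cell cannot be told apart, and the part of these cells in the genotype differences was not tested. Of 6 myeloid and dendritic markers Itgax and Fcer1g were called higher and Adgre1 lower (summed 0.420 to 0.855 in KO control and 0.389 to 0.519 in WT control). Itgax was well above background on 0 of the 3 WT control arrays. Of 3 erythroid and platelet markers 0 were called, against 22.0% of all genes. Between KO miR-29b and KO control 0 markers of these 5 lists were called without a block, against 2.20% of all genes. The summed natural killer signal was 0.286 to 0.886 in KO miR-29b (with 1 Ncr1 spot dropped as an outlier) and 0.213 to 0.844 in KO control. Blocked on the mouse, Adgre1 (1.06) was among the markers called higher and Hba-a1 (-0.65) was called lower with miR-29b. In that fit 13.1% of all genes were called higher and 9.44% lower.

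The members differed in how they followed the scan day. The second day held 1 array of each group, those of KO mouse 4 and WT mouse 3 on 1 slide. These arrays had the lowest Tbx21 level in all 4 groups, at 2.83 against 3.45 to 4.52 in KO miR-29b and 3.83 against 4.85 to 5.06 in KO control. In the wild type they had 2.53 against 3.98 to 4.00 with inhibitors and 2.29 against 3.67 to 3.93 with the control. Such a pattern was found for 25.7% of all genes. The brighter Runx3 probe was highest on these arrays in all 4 groups, as were 16.4% of all genes, but the dimmer probe was not. Hlx was lowest there in both KO groups and highest in both WT groups. These arrays came from other mice as well as another slide, so mouse, slide and scan day cannot be told apart.

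Genes around the 5 factors were taken from lists of their targets, partners and inducing signals. Of 14 T-bet and Eomes target genes 2 were called lower with miR-29b and 0 higher, against 1.19% of all genes called lower, and the median change was -0.39. Ifng had levels of 1.11, 1.39 and -0.21 in KO miR-29b, 4.59, 3.97 and 2.54 in KO control, -1.98, -2.54 and -1.86 in WT inhibitor and -2.27, -2.87 and -2.67 in WT control. It fell by 2.94 ± 0.53 on the log2 scale with miR-29b (limma, adjusted p = 0.0211) and differed by 6.30 between the controls, and like Eomes its KO miR-29b level lay between KO control and WT control.

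Fasl, a death ligand (-1.74), and Nkg7, a cytotoxic granule protein gene (-1.31), were called only when blocked on the mouse (limma, adjusted p = 0.00633 and 0.00601). The chemokine genes Ccl3 (-0.18) and Ccl4 (-0.18) and the perforin gene Prf1 (-0.35) did not pass.

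Between the controls 5 of these 14 target genes were called higher in KO cells and 1 lower, against 9.27% of all genes called higher and 22.0% in either direction, with a median of 1.06 against -0.08 over all genes. The higher ones were Ifng, Ccl3 (4.36, with only 1 of the 3 WT control arrays well above background), Prf1 (4.01), Ccl4 (2.74) and Ccl5 (1.59). Cxcr3, the chemokine receptor that T-bet is known to activate, was lower (-0.63). With inhibitors 0 of the 14 passed.

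Of 19 Th1 signals and cofactors 2 fell with miR-29b, both of them receptor subunits, against 1.19% of all genes called lower (median of the list -0.16). Il18rap, of the interleukin 18 receptor, had levels of -1.96, -1.23 and -2.35 in KO miR-29b and 0.14, 0.18 and -0.41 in KO control, a change of -1.82 ± 0.28. Il12rb2, of the interleukin 12 receptor, had -0.52, 0.60 and -0.25 in KO miR-29b and 1.27, 1.37 and 1.15 in KO control, a change of -1.32 ± 0.26. Neither gene's groups overlapped (limma, adjusted p = 0.0107 and 0.0318).

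Between the controls 9 of the 19 were higher in KO cells and 0 lower, against 9.27% of all genes called higher, with a median of 0.71. Among them were the interferon signal genes Irf1 (1.77) and Ifngr2 (1.48), the receptor genes Il18r1 (2.36), Il12rb2 (2.24) and Il12rb1 (1.29), the repressor genes Zeb2 (2.71), a known T-bet partner, and Prdm1 (1.24), and Notch1 (0.68). Notch1 lost the call when blocked on the mouse (limma, adjusted p = 0.0619). Stat4 (0.36), the main transducer of interleukin 12, did not pass.

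Of 15 other T-box family genes on the array 8 were measured, and 0 of these 8 were called in any comparison, against 2.20% of all genes with miR-29b, 0% with inhibitors, 22.0% between the controls and 0.163% for the difference of the effects. The closest were Tbx6, with 0.71 in the miR-29b comparison and 0.76 between the controls, and Tbx2, with -0.62 between the controls.

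Among 7 RUNX and CBF partners 0 were called with miR-29b, against 2.20% of all genes, and the median was 0.57. Blocked on the mouse, 4 of the 7 were higher: Runx1 (0.60), Zbtb7b (0.59), which opposes Runx3 in lineage choice, and the corepressor genes Tle1 (0.95) and Tle4 (0.57). This was against 13.1% of all genes called higher in that fit. Between the controls Tle3 was higher (1.42) and Tle1 (-1.92) and Tle4 (-1.20) were lower, against 22.0% of all genes called in either direction. Cbfb, the common partner of RUNX proteins, showed -0.11.

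Of 15 regulators of other T cell lineages 0 were called with miR-29b, against 2.20% of all genes, and the median was 0.08. With the mouse as a block Lef1 (0.87) and Tcf7 (0.79) were higher and Rora (-0.76) and Ahr (-0.74) lower. This was against 13.1% of all genes called higher and 9.44% lower in that fit. Between the controls 3 of the 15 were higher, Maf (3.55), Irf4 (1.86) and Ahr (1.48), and 1 was lower, Foxp3 (-1.72). Of all genes 9.27% were called higher there and 22.0% in either direction. The Th2 regulator Gata3 showed 0.15. The comparisons with miR-29b and between the controls share the KO control arrays.

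**Figure D5:**
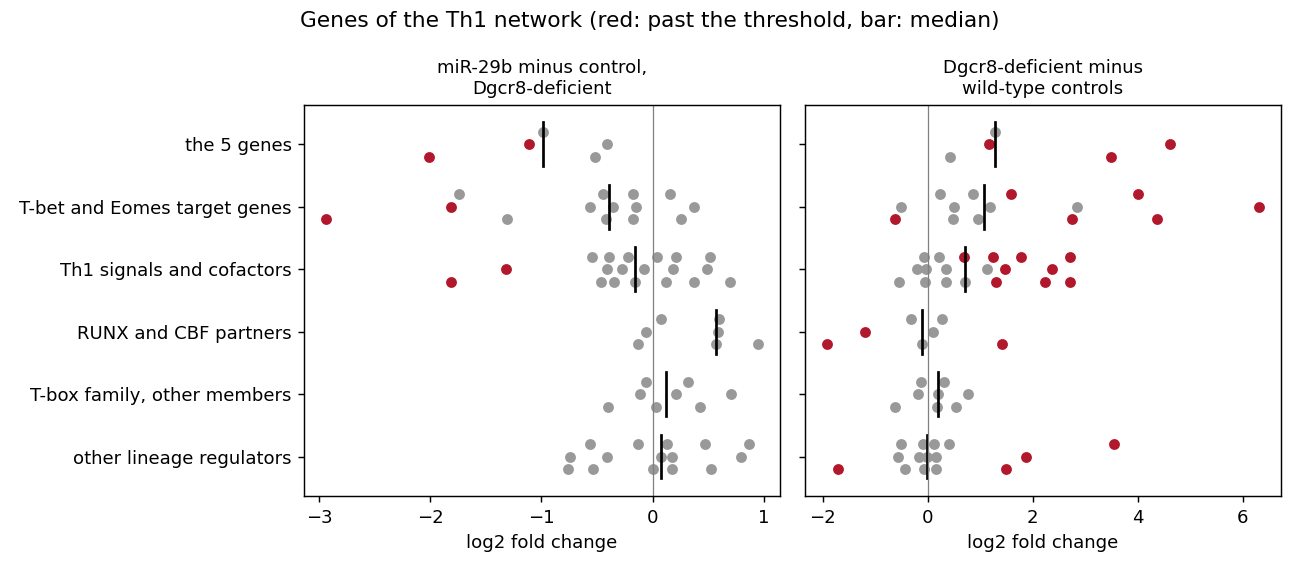
Log2 fold change (horizontal axis) of the 5 genes and of 5 gene lists, 1 point per gene, for miR-29b minus control in DGCR8-deficient cells (left) and KO control minus WT control (right); red points pass an adjusted p of 0.05 without a block and the black bar is the median. The 5 genes have a median of -0.98 on the left, and the target genes have a median of -0.39 on the left and 1.06 on the right, both panels using the same KO control arrays.

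The 3 genes whose level was most like each member's over the 12 arrays were named by Pearson's r. These arrays came from 6 mice in 4 groups and shared 4 slides, so the values are descriptions. For Tbx21 they were Ehbp1l1 (0.97), Bco1 (0.97), well above background on only 7 of the 12 arrays, and Itgb7 (0.96), an integrin gene. For Eomes they were Khdc1a (0.99), Gbp7 (0.99), an interferon-induced GTPase gene, and Ido1 (0.99), an interferon-induced enzyme gene. Gbp7 fell with miR-29b (-0.83, limma, adjusted p = 0.0392), and Gbp7 and Ido1 were higher in KO control than in WT control, by 2.31 and 6.69. Khdc1a was well above background on only 6 of the 12 arrays, so no difference is given for it.

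For Runx3 the most alike genes were Rnf138 (0.98), Clic4 (0.98) and Tpp2 (0.97). For Hlx they were Selenom (0.97), Tmem132a (0.97) and Naprt (0.96). For Hopx they were 2610524H06Rik (0.98), Ak3 (0.96) and Dpy19l1 (0.95). The 3 genes most like Hopx showed -1.15, -1.76 and -0.77 with miR-29b, none past the threshold without a block, and 0.30, 0.39 and -0.10 between the controls. No gene was among the 3 most alike of more than 1 member.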

How the data were processed

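Spot intensity (processed signal, arbitrary units) came from the deposited scanner files, extracted with Agilent Feature Extraction 10.5.1.1 per the file headers, which give arrays designed on mm9. The authors' deposited log2 values, for which the submitters' processing notes name limma without steps, served as an alternative. Its columns had nearly equal distributions (sorted columns differed by at most 0.178), their medians were 6.95 to 6.96, and its further scaling stays unknown.

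Spots marked as outliers and 1639 control spots were dropped, log2 signals were centred on the array's 75th percentile, and replicate spots were averaged. Probes were retained if well above background on at least 3 of 12 arrays (32200 probes, 21083 with a gene), and the brightest kept probe stood for a gene. Symbols were matched by accession to RefSeq (GRCm38.p6). Groups from the sample titles were compared with limma 3.58.1 (R 4.3.3, data.table, version 1.17.8), with Benjamini-Hochberg adjustment over all genes. Without a block, p-values measure the spread between mice, and both arrays of a mouse entered as if independent. The series text ties both arrays of a DGCR8-deficient mouse together; residuals of same-mouse arrays correlated at 0.652, 0.613 and 0.753 in that genotype and 0.468, 0.722 and 0.430 in the wild type, so the mouse was used as a block in a further fit. In that fit the p-values for miR-29b, the inhibitors and the difference of the effects measure the spread of the changes within mice. The comparison of the controls instead used 1 correlation between the arrays of a mouse, estimated over all genes. Slide (4), scan day (2), background correction, scaling, filters, the probe rule and left-out arrays were the other alternatives. The normexp alternative used the median signal, since the files used hold no mean signal. The fit was tested on simulated data in which all arrays were independent, so that test does not cover arrays that share a mouse.

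The members and lists were chosen with earlier results of these data known. Named genes were the 5 members, Dgcr8, Dnmt3a and Dnmt3b, list genes past the threshold with up to 4 others of smallest p, and the 3 genes most like each member; Ccl3, Ccl4 and Prf1 under miR-29b, Stat4, Cbfb, Cd8a and Gata3 were named beside them after their values were seen. Some genes of the lists are counted but not reported here by name.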

Additional observations from a re-analysis of the deposited data

How the results depend on the processing

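Each of the 20 results (5 genes in 4 comparisons) was refitted under up to 11 other settings and 18 left-out arrays or mice, and the cause of a change was not tested. Between the controls Eomes, Runx3 and Hlx passed under all of them. With miR-29b, Eomes passed in 9 of the 11 settings, losing the call with normexp (-0.98) and on only the 6 KO arrays (-1.11, same value with fewer samples), and in 7 of 18 left-out fits (-1.24 to -0.94). Hopx passed in 10 of 11, losing it on only the KO arrays (-2.01), and in 4 of 18 (-2.34 to -1.64). The mouse, slide or scan day as a block left Tbx21 (-0.98) and Runx3 (-0.51) at the same value and past the threshold. The left-out fits, which had no block, gave -1.12 to 0.23 for Hlx with miR-29b. With inhibitors they gave -0.29 to 0.69 for Tbx21, -0.11 to 0.20 for Runx3 and -0.23 to 0.23 for Hopx. In such fits the direction depended on which arrays or mice were left out. Leaving out a single array also leaves its partner from the same mouse unmatched. Within mice, inhibitors changed Tbx21 by 0.31, 0.24 and 0.07 and the brighter Runx3 probe by 0.06, 0.05 and 0.03. Hopx changed by 0.04, 0.35 and -0.18. Between the controls Tbx21 passed with slide (1.22) or scan day (1.28) as a block. The difference of the effects passed for Tbx21 with the mouse as a block (-1.19), for Hopx with the mouse, slide or scan day (-2.09), and for Eomes with these and with a filter on all 12 arrays (each -1.71) and in the authors' deposited table (-1.44). The mouse as a block changed no other call.

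Genes called with miR-29b numbered 324, but 209 with median scaling, 568 in the authors' deposited table, 3321, 2706 and 1931 with mouse, slide and scan day as a block, 0 on only the KO arrays (limma, 1346 before adjustment), and 0 (without KO mouse 4) to 287 in the left-out fits. Between the controls 3232 became 6320 and 5848 with slide and scan day, and 1885 to 3401 in the left-out fits. For the difference of the effects 24 became 7 (mean of a gene's probes), 9 (median scaling), 12 (no filter), 39 (quantile), 57 (filter on all 12 arrays), 93 (authors' deposited table), 904, 588 and 344 (mouse, slide, scan day) and 0 to 46 in the left-out fits. Of the genes called with miR-29b 46.0% were higher, against 15.3% with median scaling, 34.5% with normexp and 35.8% with quantile normalization. WT signals of Eomes and Hlx were dim, and normexp gave them smaller differences (3.22 and 2.48 between the controls).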
